A study of Mus musculus with 7 samples.

Results

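Glycolysis and the hypoxia response were examined in subcutaneous J558 tumours through 38 mouse genes: 18 glycolytic enzymes, with the regulator Pfkfb3 counted among them, and 20 others that carry glucose and lactate, control pyruvate entry to mitochondria, sense oxygen or are induced by low oxygen. They were picked by symbol, current or older, in the annotation of an Illumina MouseRef-8 BeadChip. A named probe was held for 32 of the 38, against 14739 genes named on the whole array, and these 32 had 43 probes. No named probe was held for Gpi1, Aldoc, Eno1, Slc16a3, Ankrd37 or Kdm3a. J558 is a myeloma line of BALB/c origin, a tumour of antibody-secreting plasma cells, and it was inoculated under the skin at the back of the neck of male BALB/c mice. The samples are labelled as 10 weeks of age, whereas the paper has the mice inoculated at 7 weeks. Tumour RNA was taken 4 weeks after inoculation from a control group that drank distilled water (n = 4) and a group that drank oil palm phenolics (OPP), a water-soluble extract from palm oil milling, at 1500 ppm in gallic acid equivalents (n = 3). Every mouse carried the same implanted line and ate standard chow, so each sample held tumour cells together with whatever host tissue was excised with them. The labels give 7 replicates without saying that each was a separate mouse, so the p-values measure the spread among these samples. The authors had removed outlier samples by clustering, which can narrow that spread.

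Glycolysis splits glucose into pyruvate, and lactate dehydrogenase turns pyruvate into lactate, which lets a cell make energy without oxygen. Hypoxia-inducible factor (HIF) is a pair of proteins, an oxygen-labile alpha subunit (Hif1a or Epas1) and the stable Arnt. When oxygen is plentiful the prolyl hydroxylases Egln1, Egln2 and Egln3 mark the alpha subunit for destruction. When oxygen is short HIF binds the core ACGTG or GCGTG in its target genes, many of which encode glucose transporters and glycolytic enzymes. Solid tumours are known for running both programmes, and the oxygen control of the alpha subunit acts on the protein and not mainly on its mRNA.

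The 4 promoters printed here belong to the 2 members with the smallest p-values, Hk1 and Egln1, and to 2 well-known HIF targets, Ldha and Pgk1. Each is a RefSeq window of 300 bases around a transcription start on GRCm38.p6, 5′ to 3′ along the gene's strand, with capitals marking ACGTG or GCGTG on either strand. The windows are chr10:62340372-62340671 (minus strand) for Hk1, chr8:124949205-124949504 (minus) for Egln1, chr7:46845554-46845853 (plus) for Ldha and chrX:106186850-106187149 (plus) for Pgk1.
Hk1: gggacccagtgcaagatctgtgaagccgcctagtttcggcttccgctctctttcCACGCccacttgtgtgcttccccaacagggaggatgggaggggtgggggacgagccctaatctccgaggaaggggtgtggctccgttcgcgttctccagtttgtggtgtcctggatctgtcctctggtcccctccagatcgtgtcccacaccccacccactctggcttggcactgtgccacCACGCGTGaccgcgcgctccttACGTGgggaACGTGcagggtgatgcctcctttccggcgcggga
Egln1: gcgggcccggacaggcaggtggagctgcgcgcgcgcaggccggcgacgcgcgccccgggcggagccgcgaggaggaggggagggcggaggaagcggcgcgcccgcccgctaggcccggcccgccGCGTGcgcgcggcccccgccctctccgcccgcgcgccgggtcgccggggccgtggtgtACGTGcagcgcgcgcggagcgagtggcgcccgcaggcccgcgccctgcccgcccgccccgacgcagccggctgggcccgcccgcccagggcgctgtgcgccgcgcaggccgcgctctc
Ldha: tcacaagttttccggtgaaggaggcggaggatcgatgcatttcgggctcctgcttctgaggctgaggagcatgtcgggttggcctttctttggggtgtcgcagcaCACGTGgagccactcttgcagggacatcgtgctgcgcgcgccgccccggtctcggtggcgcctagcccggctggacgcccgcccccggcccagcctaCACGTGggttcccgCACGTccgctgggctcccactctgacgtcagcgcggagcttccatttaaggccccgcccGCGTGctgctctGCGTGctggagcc
Pgk1: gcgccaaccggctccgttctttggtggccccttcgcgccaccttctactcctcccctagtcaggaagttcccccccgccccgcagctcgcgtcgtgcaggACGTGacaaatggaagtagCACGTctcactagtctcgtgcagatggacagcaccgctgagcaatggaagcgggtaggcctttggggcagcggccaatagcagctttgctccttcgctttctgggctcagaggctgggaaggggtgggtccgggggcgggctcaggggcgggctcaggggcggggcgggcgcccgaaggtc

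Hk1 had 5 starts of the core in this window and none in a second window at another start, Egln1 had 2 and Pgk1 had 2. Ldha had 7, of which 2 pairs overlap because CACGTG, present in 2 places, reads as ACGTG on both strands. Of the 34 members with a promoter in the table, 31 (91.2%) held the core on either strand in at least 1 window. It is a short core, held by 46.7% of all 27025 genes and by 69.4% of the 5912 genes with both a promoter and a tested probe. A match is a string of letters and was not measured as a binding site here.

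Signals are the authors' background-subtracted, rank invariant normalised intensities on a linear scale, and a probe was tested when all arrays of one group or the other exceeded the noise. The noise limit was 20.6 to 26.7 signal units among the arrays, and 44.4% to 47.0% of probes lay above it. Of 10371 tested probes, 971 (9.36%) had an unadjusted p under 0.05 for OPP against control, 603 (5.81%) higher and 368 (3.55%) lower, and without control 1 the larger share was lower (46.5% of 1211 higher). None had an adjusted p under 0.05 in limma (smallest adjusted p = 0.110). Groups without overlap were seen for 1006 probes (9.7%), 613 (5.91%) higher and 393 (3.79%) lower in OPP tumours. Correlations of log2 signal were 0.972 to 0.987 among control arrays, 0.970 to 0.982 among OPP arrays and 0.954 to 0.983 between groups. All 10 plasma cell markers were tested and their summed signal was 45239 to 51930 in controls and 47743 to 52701 in OPP tumours. Most of that sum came from Xbp1 and Pou2af1 (17787 and 18703 of 47945 in control 1). By log2 change 4 of the 10 were above 0 and 6 below (−0.93 to 0.32), none with an unadjusted p under 0.05 in limma. A second, dimmer Sdc1 probe gave 0.61 (limma unadjusted p = 0.007). Of the 10, 9 were above the noise limit on all 7 arrays and the other, Mzb1, was under it in OPP sample 3. Skeletal muscle markers did not match between the groups. The summed signal of the 13 with a probe was 8095 to 26992 in controls and 1699 to 6714 in OPP tumours. Much of the OPP sum came from Pgam2 and Eno3, with log2 changes of only −0.01 and −0.29. They gave 1435.4 and 918.9 of 2434.5 in OPP sample 1 and 1838 and 658.9 of 6714 in OPP sample 2. In OPP sample 3 they gave 398.9 and 668.5 of 1699. Of the 13 markers, 12 were tested, all 12 were below 0 and 10 had an unadjusted p under 0.05 in limma. Among the 10, only Acta1 and Mylpf exceeded the noise limit on all 3 OPP arrays. The others were tested through the controls alone, where they were high, so the filter favours a count of lower genes. The muscle markers chosen by the naming rule were Mybpc1, Actn2, Tcap, Mybpc2, Actn3 and Tnnt3, proteins of the muscle fibre. Mybpc1 lay under the noise limit on all 3 OPP arrays and was at least 1.90-fold lower there (limma, adjusted p = 0.110), the bound being the control mean over the higher of the limit and the probe's own signal. Of 7 tested macrophage markers 6 were below 0 (median −0.24), as were all 5 tested T and NK cell markers (median −1.59). All 6 tested endothelial markers were above 0 (median 0.17). Of 3 tested red blood cell markers 1 was above 0 and 2 below, and the 1 tested neutrophil marker was below. None of these had an unadjusted p under 0.05 in limma. In bulk tumours, fewer cells of a type and less RNA per cell cannot be told apart.

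The glycolytic and hypoxia genes had a median difference close to 0 between OPP-treated and control tumours, and Hk1 alone separated the groups. Each gene was represented by its brightest tested probe, and 25 of the 32 genes had one. Of these 25, 16 lay above 0 and 9 below, with a median log2 change (OPP minus control) of 0.04 and a range of −0.67 to 0.53, beside a median of 0.01 over all tested probes, of which 51.7% were above 0. An unadjusted p under 0.05 was found for 2 of the 25 (8.0%), against 9.36% of all probes: Hk1, higher, and Egln1, lower. Egln1 was tested through the controls alone, since only 2 of its 3 OPP signals were above the noise limit, and the filter thus favoured its direction. Only Hk1 had groups that did not overlap, against 9.7% of all probes. No member passed the adjusted threshold (limma, smallest adjusted p = 0.416). Among the 13 tested glycolytic enzymes the median was 0.02 (8 above 0, 5 below), and among the 12 tested members outside them it was 0.07 (8 above, 4 below).

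**Figure D1:**
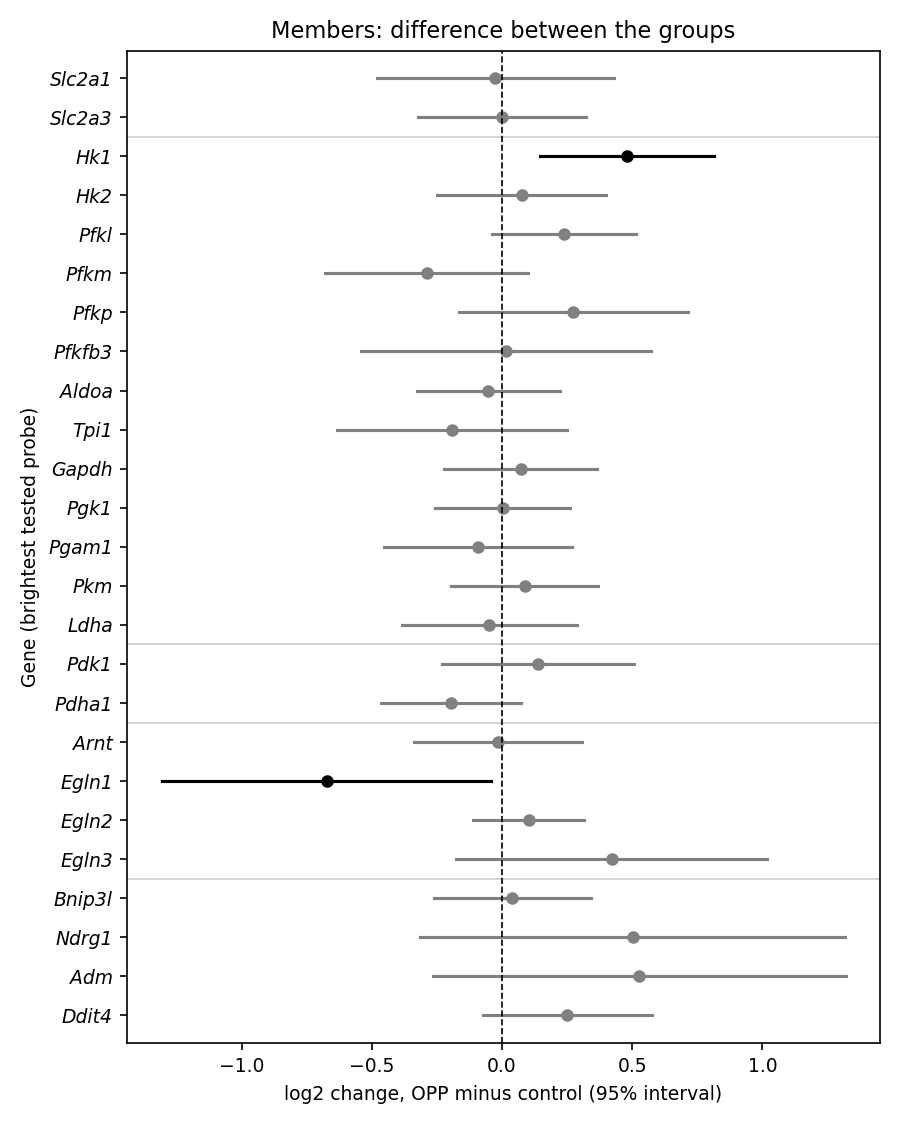
Log2 change of the 25 tested members, OPP minus control, by brightest probe, with 95% intervals from limma and grey lines between gene groups. Black marks an unadjusted p under 0.05, which only Hk1 (0.48) and Egln1 (−0.67) reached, and the intervals of the other 23 genes cross 0.

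Glucose enters the cell through Slc2a1 (GLUT1) and Slc2a3 (GLUT3). Slc2a1 read 426, 613, 680.4 and 621 in controls 1 to 4 and 704, 518 and 497 in OPP tumours 1 to 3. The OPP values lay inside and just above the control range, and the log2 change was −0.03 (95% interval −0.48 to 0.43). For Slc2a3 the log2 change was 0.00 (−0.32 to 0.32), from 382 to 536 in controls and 390.5 to 462 in OPP tumours. The lactate carrier Slc16a1 (MCT1) was below the noise limit on all 7 arrays, at −11.8 to 6.4, and was not tested.

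Hexokinases trap glucose in the cell as glucose 6-phosphate. Hk1, the form found in most tissues, gave 43.6, 60.7, 48.1 and 42.1 in controls and 69.6, 70.1 and 62.0 in OPP tumours. Every OPP sample was above every control, though the lowest OPP sample exceeded control 2 by only a small step, and all 7 signals were within a few multiples of the noise limit. The mean was 48.6 ± 8.44 (SD, n = 4) against 67.2 ± 4.54 (SD, n = 3), a log2 change of 0.48 (SE 0.14, 95% interval 0.15 to 0.82, limma unadjusted p = 0.011, adjusted p = 0.416). Hk2, the inducible hexokinase of muscle and many tumours, gave 697, 929, 945 and 983 in controls and 861, 988 and 938 in OPP tumours. Apart from the low control 1, the 6 other samples were close together, and the log2 change was 0.08 (−0.25 to 0.40).

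Phosphofructokinase commits sugar to glycolysis and has liver (Pfkl), muscle (Pfkm) and platelet (Pfkp) subunits. Pfkl read 1954, 1840.4, 2371 and 1822 in controls and 2243, 2295 and 2498 in OPP tumours. All OPP samples were above 3 of the 4 controls, with control 3 among them, and the log2 change was 0.24 (SE 0.12, −0.04 to 0.52, limma unadjusted p = 0.082). Pfkp was also above 0 on its 3 probes, at 0.27, 0.21 and 0.30, and its brightest probe read 799, 793, 1135 and 679 in controls and 1174, 875 and 1005 in OPP tumours. Here too control 3 lay among the OPP samples, and limma gave unadjusted p = 0.187 for that probe. Without control 3 the log2 changes were 0.32 for Pfkl and 0.42 for Pfkp (limma unadjusted p = 0.016 and 0.024), while leaving out each sample in turn gave 0.19 to 0.32 and 0.17 to 0.42, Pfkp being lowest without control 4 or OPP sample 1. With a trended and robust variance prior Pfkl had a limma unadjusted p of 0.039. Pfkm went the other way on its bright probe, with 1247, 1150.3, 1546 and 1737 in controls and 999, 1255 and 1203 in OPP tumours. Its log2 change was −0.29 (−0.68 to 0.10, limma unadjusted p = 0.125), whereas a dim second probe gave −0.03. Controls 3 and 4 had the highest Pfkm signal and also the highest summed skeletal muscle markers (17050.2 and 26992, against 8095 and 10360.2 in controls 1 and 2), and the part of muscle tissue in the Pfkm difference was not tested. Pfkfb3, which makes the phosphofructokinase activator fructose 2,6-bisphosphate, had a log2 change of 0.02 (−0.54 to 0.57), with control 1 the lowest of all samples at 69.5 and control 4 the highest at 140.4.

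**Figure D2:**
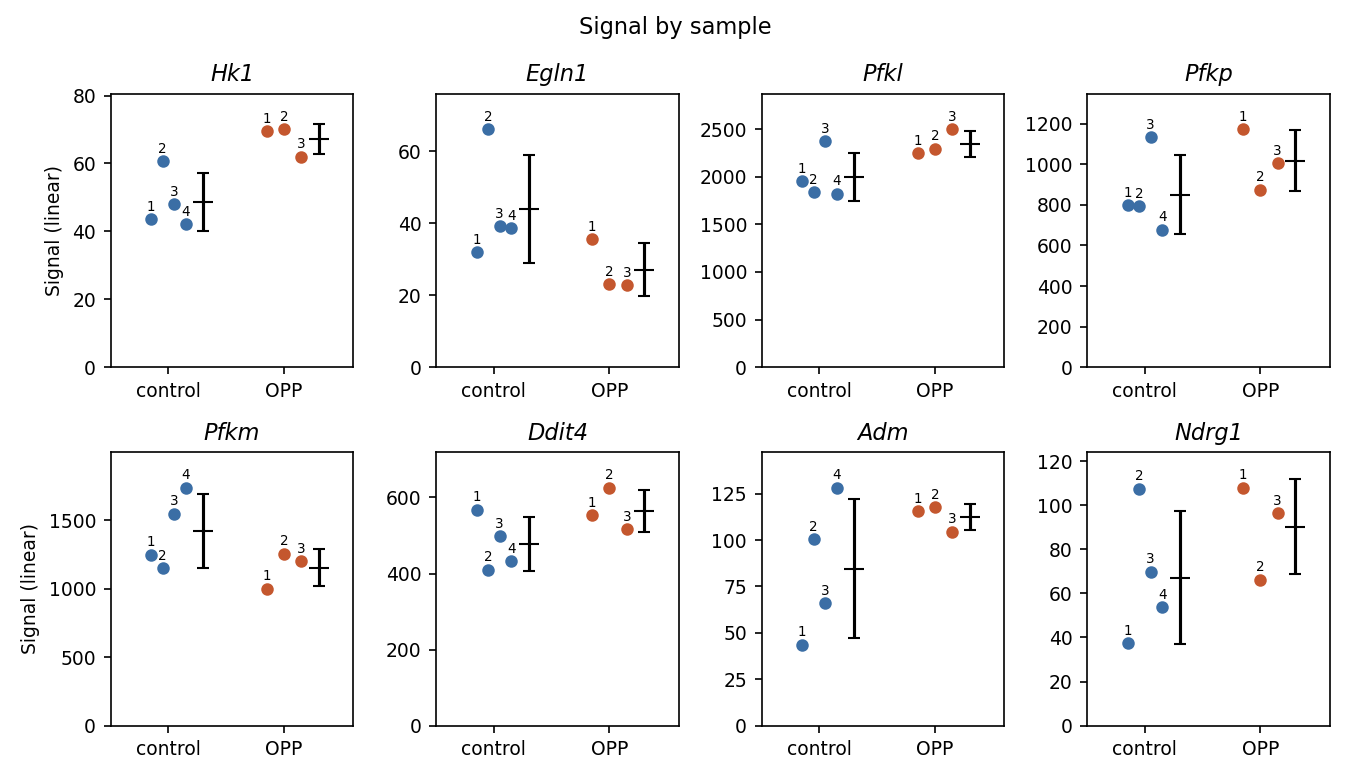
Signal of 8 members by sample on linear axes from 0, with controls in blue, OPP tumours in red, replicate numbers above the points, and a bar for mean ± SD (n = 4 and n = 3). Only Hk1 separates the groups, and control 3 lies among the OPP samples for Pfkl and Pfkp.

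The enzymes of the later steps had log2 changes close to 0. Aldoa, which cleaves fructose 1,6-bisphosphate, had a log2 change of −0.05 (−0.33 to 0.22). Tpi1, which interconverts the resulting triose phosphates, gave −0.19 (−0.64 to 0.25), with 5462 to 7866 in controls, 6471 and 6513 in OPP tumours 1 and 2 and 4302 in OPP tumour 3. Without that low sample the log2 change was 0.00, and a second Tpi1 probe gave −0.05. Gapdh, often used as a reference transcript, gave 0.07, −0.03 and −0.04 on 3 probes. Its brightest probe read 22784, 25628, 29857 and 25280.1 in controls and 25408, 30759 and 25394 in OPP tumours. The groups overlapped in part, with controls 1 and 4 below and OPP sample 2 above all samples of the other group. Pgk1, the first step of glycolysis that makes ATP, had a log2 change of 0.00 (−0.26 to 0.26), among the narrowest intervals of the set. Pgam1 gave −0.09 (−0.45 to 0.27) and Pkm, the pyruvate kinase of most dividing cells, gave 0.09 (−0.19 to 0.37).

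Ldha, the subunit of lactate dehydrogenase that favours lactate, read 9051, 10967, 13181 and 9414 in controls and 9679, 10604 and 10305 in OPP tumours. The controls spanned the OPP samples on both sides, with a log2 change of −0.05 (−0.38 to 0.29). Its partner Ldhb and the enolase Eno2 exceeded the limit on some arrays only (−1.8 to 53.3 and 3.5 to 31.4) and were not tested.

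The spread within the control group had a shared pattern. Among the 13 tested glycolytic enzymes, control 3 was the highest of the 7 samples for 6 and control 1 the lowest for 7, against 11.3% and 16.6% of all tested probes, and 14.9% and 17.2% of the brightest 10% of probes. The median deviation of the 13 from their mean over the arrays was −0.20 on the log2 scale in control 1 and 0.20 in control 3, and between −0.08 and 0.05 on the other 5 arrays. Over all tested probes the same medians were −0.04 and 0.00 in controls 1 and 3. Thus control 1 and control 3 lay farther apart in glycolytic signal than the group medians did, and the cause was not tested. Macrophage and T and NK cell markers were also low in control 1, at summed signals of 7882 and 155 against 13494 to 16440.4 and 1710.0 to 2193 in the other controls. They were low in OPP sample 3 as well, at 8831 and 38.9, where the median glycolytic deviation was −0.01. Of the 25 tested members of both kinds, control 3 was highest for 9 and control 1 lowest for 11.

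**Figure D3:**
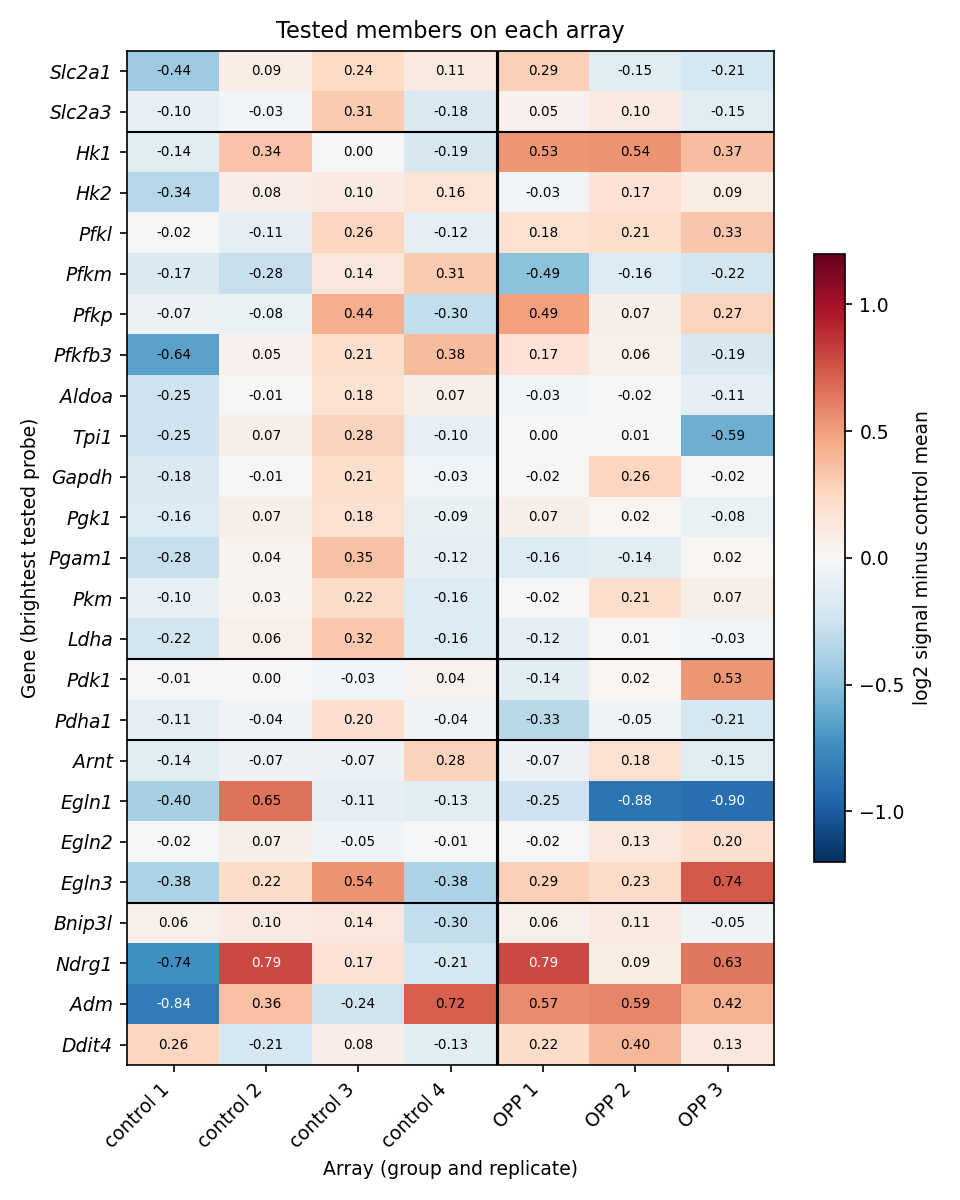
Log2 signal of each tested member (rows, brightest probe) on each array (columns), minus the control mean of that gene, with signals under 10 set to 10. Blue runs down control 1 and red down control 3 through the enzymes from Aldoa to Ldha. The OPP columns are mostly pale there, apart from Tpi1 in OPP 3 and from Gapdh and Pkm in OPP 2, which are about as red as control 3.

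Pyruvate enters mitochondria through pyruvate dehydrogenase, whose catalytic subunit is Pdha1 and whose inhibitor is the kinase Pdk1. Pdha1 read 648, 681, 807 and 681 in controls and 559, 676 and 607 in OPP tumours. OPP samples 1 and 3 were below every control and OPP sample 2 was not, with a log2 change of −0.20 (−0.47 to 0.07, limma unadjusted p = 0.128). Pdk1, a HIF target, held between 289 and 305 in all 4 controls and gave 268, 299.8 and 426.5 in OPP tumours. A single sample, OPP 3, was above the controls, and the log2 change was 0.14 (−0.23 to 0.51), or −0.06 without that sample.

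HIF itself was little seen by the array. The probe for Hif1a gave signals of −21.3 to −6.6 and that for Epas1 −8.6 to 3.4, both under the limit on all 7 arrays, so neither transcript can be compared and a probe without signal says nothing of the protein. Arnt, the stable partner, was measured by 2 probes with log2 changes of −0.02 (−0.34 to 0.31) and 0.11.

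Among the oxygen sensors, Egln1 (PHD2), the main HIF hydroxylase at normal oxygen, read 32.0, 66.1, 39.1 and 38.6 in controls and 35.6, 23.0 and 22.7 in OPP tumours. The groups overlapped, since OPP sample 1 exceeded control 1, and only 2 of the 3 OPP signals were above the noise limit. The log2 change was −0.67 (SE 0.27, −1.31 to −0.04, limma unadjusted p = 0.040, adjusted p = 0.509). In limma it did not reach an unadjusted p under 0.05 with a floor of 50 (log2 change −0.10), with every probe kept, or when control 2, 3 or 4 or OPP sample 2 or 3 was left out (−0.72 to −0.46), and the 2 other Egln1 probes were under the limit on all 7 arrays. Egln2 gave 0.10 (−0.11 to 0.32) from one of the steadiest probes of the set, with a larger spread over the 7 arrays in 92.0% of tested probes. Egln3, which is itself induced by HIF, read 35.9, 54.2, 67.7 and 35.9 in controls and 57.2, 54.7 and 77.8 in OPP tumours. It was above 3 of 4 controls in every OPP sample, with a log2 change of 0.42 (SE 0.26, −0.18 to 1.02, limma unadjusted p = 0.141). It was 0.60 without control 3 (limma unadjusted p = 0.031), 0.26 without OPP sample 3 and 0.18 with a floor of 50.

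The remaining HIF targets had the highest median of any member group, 0.38 over 4 tested genes, all above 0 and none at an unadjusted p under 0.05. Adm encodes the vasodilator adrenomedullin and read 43.7, 100.4, 65.9 and 128.2 in controls and 115.6, 117.6 and 104.5 in OPP tumours. Its controls covered a wide range that included all OPP samples, with a log2 change of 0.53 (SE 0.34, −0.27 to 1.32). Ndrg1, a stress-induced gene, gave 37.3, 107.5, 69.9 and 53.8 in controls and 107.9, 66.2 and 96.4 in OPP tumours. The groups also overlapped, with a log2 change of 0.50 (SE 0.35, −0.31 to 1.32), and both probes were among the more variable ones (6.18% and 5.94% of tested probes had a larger spread). Leaving out control 4 gave 0.77 for Adm and leaving out control 2 gave 0.77 for Ndrg1 (limma unadjusted p = 0.035 and 0.031), whereas without control 1 they were 0.25 and 0.26 (limma unadjusted p = 0.334 and 0.412). Ddit4 (REDD1), an inhibitor of mTORC1, gave 568, 410.5, 499 and 433 in controls and 554, 626 and 517 in OPP tumours. Control 1 was the exception to an otherwise complete separation, and the log2 change was 0.25 (−0.07 to 0.57, limma unadjusted p = 0.111), or 0.34 without control 1 (limma unadjusted p = 0.035). Bnip3l, a mitophagy receptor, gave 0.04 (−0.26 to 0.34). Its relative Bnip3 and the carbonic anhydrase Car9 were under the limit on all 7 arrays.

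Other genes of these pathways were taken from a further list of 79, of which 65 had a named probe and 44 were tested: 28 were above 0 and 16 below, with a median of 0.05, and 4 (9.09%) had an unadjusted p under 0.05, beside 9.36% of all probes. By role, the 7 tested isozymes and regulators of glycolysis had a median of −0.17, the 7 enzymes of glycogen and pentose phosphate metabolism 0.02, the 4 genes of the pyruvate dehydrogenase complex −0.01, the 7 HIF regulators 0.05 and the 20 hypoxia response genes 0.12. None had an adjusted p under 0.05. Groups without overlap were found for 8 of the 44, 4 higher and 4 lower, beside 9.7% of all probes (5.91% higher and 3.79% lower).

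Igfbp3, a secreted binder of insulin-like growth factors, read 354, 324, 405 and 340.1 in controls and 689, 453 and 541 in OPP tumours. It did not overlap, with a log2 change of 0.64 (limma unadjusted p = 0.004, adjusted p = 0.347). P4ha1, a collagen prolyl hydroxylase, gave 71.9, 87.4, 70.6 and 82.8 in controls and 95.1, 87.8 and 113.7 in OPP tumours, a log2 change of 0.34 (limma adjusted p = 0.499). The lowest OPP sample and the highest control were nearly level, and limma gave an unadjusted p over 0.05 without control 1, control 3, OPP 1 or OPP 3 (0.23 to 0.36), and with a trended and robust prior (unadjusted p = 0.072). Igfbp3 kept an unadjusted p under 0.05 in every alternative run. Vegfa, the angiogenic growth factor and a standard HIF target, gave 0.08 (−0.25 to 0.41), with 450.1 to 635 in controls and 556 to 619 in OPP tumours.

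Fbp2, the muscle fructose bisphosphatase, read 34.6, 24.9, 62.8 and 91.7 in controls and 23.2, 22.2 and 18.7 in OPP tumours, with 1 of 3 OPP signals above the noise limit. The log2 change was −1.15 (limma adjusted p = 0.485), and without control 3 or any OPP sample the unadjusted p was over 0.05 (−1.21 to −1.01). Ppp1r3c, a glycogen-targeting subunit of protein phosphatase, gave 29.4, 53.1, 90.2 and 132.8 in controls and 14.8, 27.3 and 21.7 in OPP tumours. With 2 of 3 OPP signals above the limit, its log2 change was −1.67 (limma adjusted p = 0.414). Fbp2 and Ppp1r3c were thus tested through the controls alone, which favours a lower value in OPP tumours. With a floor of 50 the log2 changes were −0.30 for Fbp2 and −0.59 for Ppp1r3c (limma unadjusted p = 0.239 and 0.167), and with no filter on dim probes Fbp2 had a limma unadjusted p of 0.062. Both genes were highest in controls 3 and 4. The same 2 samples led for Pdk4 and Pygm, neither of which was tested. Pdk4 read 38.4, 18.2, 103.2 and 145.6 in controls and 16.8 to 20.6 in OPP tumours. Pygm read 3.1, −3.6, 35.7 and 82.5 in controls and −5.5 to 0.7 in OPP tumours. Controls 3 and 4 also had the highest summed muscle markers, of which Pygm is one, and the highest summed adipocyte markers (915.5, 1609, 3156 and 3285 in controls, 736 to 1019.7 in OPP tumours). Most of the adipocyte sum in controls came from the single gene Car3 (531, 881, 1939.5 and 2112 in controls 1 to 4). Of 7 adipocyte markers with a probe 3 were tested, all below 0 and 2, Car3 and Adipoq, at an unadjusted p under 0.05 in limma. Whether the Car3 signal came from fat or from muscle was not tested. The part of muscle or fat tissue in the differences of Fbp2, Ppp1r3c, Pdk4 and Pygm was not tested. Eno3, the muscle enolase, had a log2 change of −0.29 (−0.88 to 0.30), and Pgam2, the muscle phosphoglycerate mutase, −0.01 with OPP sample 2 the highest at 1838 and OPP sample 3 the lowest at 399. Eno3 and Pgam2 are also on the muscle marker list.

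**Figure D4:**
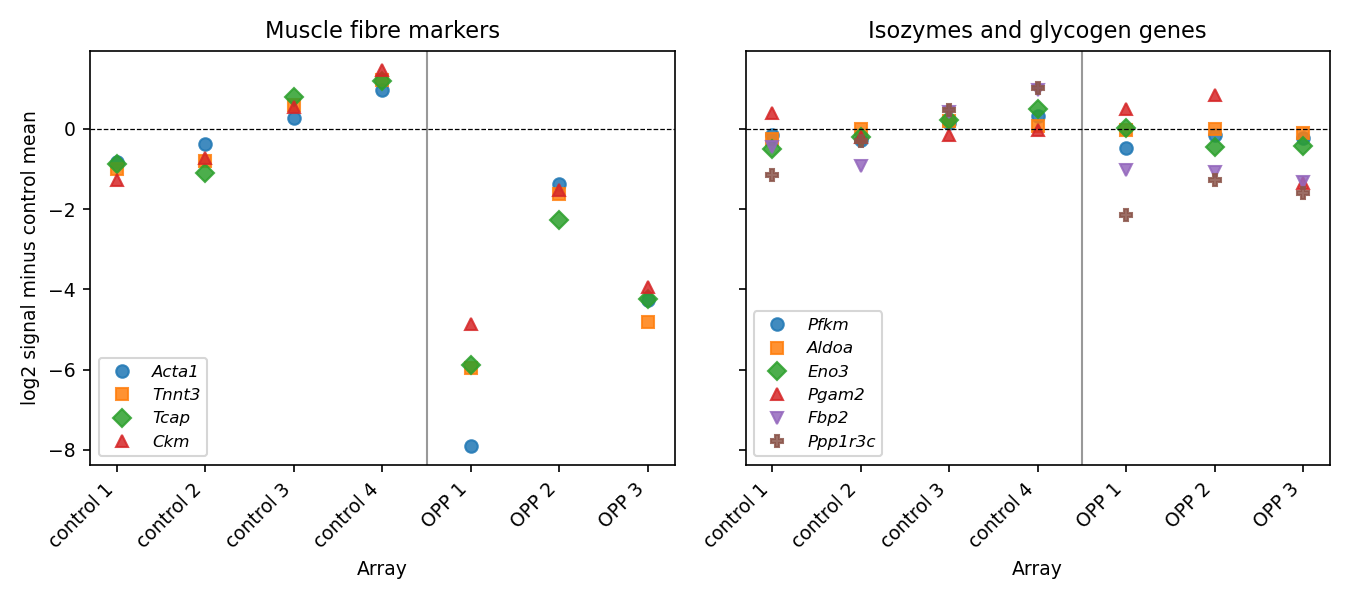
Log2 signal by array minus the control mean, with signals under 10 set to 10, for 4 muscle fibre markers (left) and 6 genes of glycolysis and glycogen (right). The fibre markers span several log2 units and are lowest in OPP 1 and OPP 3, Fbp2 and Ppp1r3c are lower in OPP tumours, and Aldoa stays near 0.

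**Figure D5:**
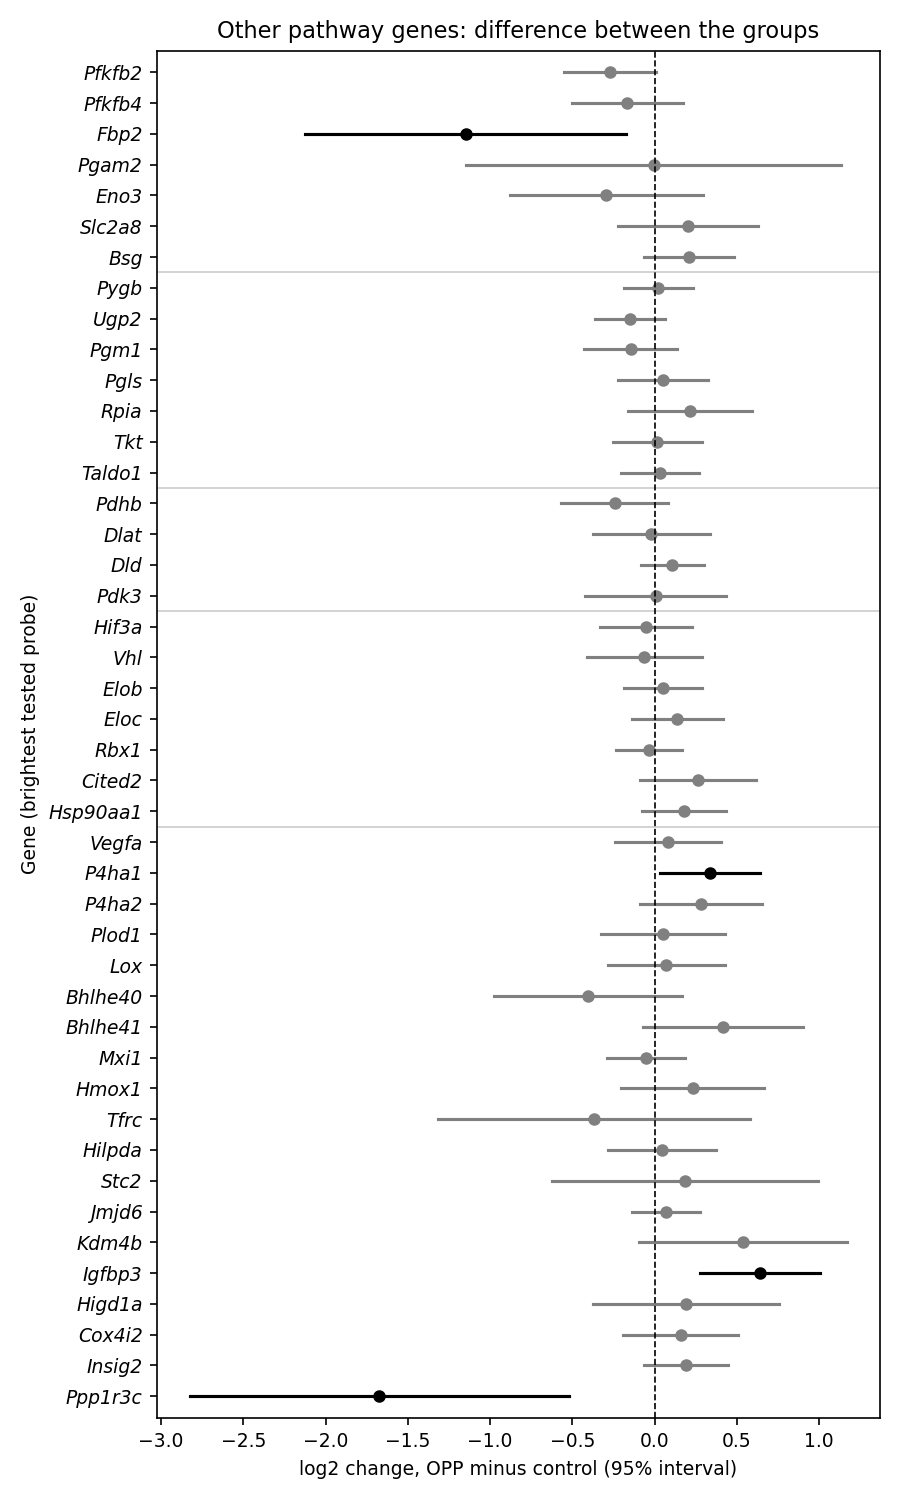
Log2 change of the 44 tested genes from the further list, OPP minus control, by brightest probe, with 95% intervals from limma and grey lines between roles. Black marks the 4 with an unadjusted p under 0.05, Fbp2 and Ppp1r3c below 0 and P4ha1 and Igfbp3 above.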

How the data were processed

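Total RNA of 4 control and 3 OPP J558 tumours was hybridised to Illumina MouseRef-8 arrays, 1 per sample. The deposited intensity values were extracted by the authors with BeadStudio 1.5.1.3 (submitters' processing notes), background-subtracted, cleared of outlier samples by clustering and normalised by the rank invariant method. The methods had first chosen 4 RNA samples in each condition by RNA integrity, and 3 OPP samples are held here. Removing samples by their expression can narrow the spread within a group, and its effect on the p-values was not tested. A table before normalisation, with 14 columns that match no sample by name, was not used. Of 24048 probes, 66 without a value and 4 bacterial controls were dropped. Of the 23978 left, 19343 had 1 gene symbol in the platform annotation and 4635 none, with symbols updated through RefSeq gene identifiers. The 1 ribosomal RNA probe stayed unnamed.

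A probe was tested (10371, of 7191 genes) when all arrays of either group exceeded a noise limit, 2.33 SD as given by that array's negative values. The filter stands in for the methods' detection score of 0.99. Signals under 10 were set to 10 and log2 was taken. The OPP and control groups were set against each other in limma 3.58.1 (lmFit, eBayes, R 4.3.3), two-sided, with p-values adjusted by Benjamini-Hochberg over all tested probes. The fit takes the place of the Illumina custom error model with which the paper called changed genes. Alternatives were other scalings, floors, filters, variance models, Student's t-test, probe averaging, a replicate block and leaving out samples. Tables were handled in Python 3.11.15 (pandas 2.3.3) and plotted with matplotlib 3.10.9.

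All 38 members are named. From the further lists, genes are named with an unadjusted p under 0.05 and groups that did not overlap, at most 6 a list by smallest p. Vegfa, Pdk4, Pygm, Eno3 and Pgam2 were added after their values were seen. The members and lists were chosen with earlier results of these data known. The procedure was tested on simulated data (10371 probes, 20 simulations), with independent normal noise and each probe's SD as moderated by limma. Of probes changed 1.5-fold, 88.6% reached an unadjusted and 26.8% an adjusted p under 0.05 in limma, and 97.1% and 76.7% at 2-fold. The simulated samples had no floor and no shift shared among genes. The shares are averages over probes and do not hold for variable ones such as Adm and Ndrg1 (SE 0.34 and 0.35). The number of arrays limits the precision.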

Additional observations from a re-analysis of the deposited data

Results flagged for a closer look

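Arnt, the stable HIF partner, stood out in 1 control sample: control 4 read 81.9, against 60.9, 64.0 and 64.3 in controls 1 to 3, and its gap to the nearest control was 0.838 of the group's range. Of 35 genes examined in the control group no other had such a gap, and chance flags about 1 in 20 groups. OPP sample 2, at 76.2, was nearly as high. A second Arnt probe read 25.0, 39.6, 40.6 and 41.9 in controls 1 to 4, so control 4 did not stand apart there.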

How the results depend on the processing

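No member had an adjusted p under 0.05 under any alternative (smallest adjusted p = 0.337 in limma, with a floor of 50), and Hk1 stayed at an unadjusted p under 0.05 in all of them. The 2 members at that threshold became 1, Hk1 alone, with a floor of 50 and with no filter on dim probes (32 genes). The same held with only probes above the limit on all 7 arrays and with Student's t-test. The count was 3 (Hk1, Pfkl and Egln1) with a trended and robust prior, and 1 to 4 when each sample was left out. The 4, without control 3, were Hk1, Pfkl, Pfkp and Egln3, and the 1, without OPP 2 or OPP 3, was Hk1. The replicate numbers do not pair the samples (correlations of deviations −0.27, 0.08 and −0.16), and with the replicate block 2 members (Hk1 and Adm) and 684 of all probes had an unadjusted p under 0.05. The medians of the glycolytic and other members moved from 0.02 and 0.07 by less than their SD between control samples (0.17 and 0.07) under every setting. They were −0.05 to 0.08 and 0.06 to 0.10 when samples were left out. Over all settings the median of the other members was 0 to 0.10. The 0 came with no filter on dim probes, which added Slc16a1, Hif1a, Epas1, Bnip3 and Car9. All signals of these genes lay under the floor of the main fit, so the floor itself fixed their log2 changes at 0. Their values took the middle of the ranking, so that median says nothing of the genes with signal. Of the 971 probes 62.1% were higher in OPP tumours, against 46.5% of 1211 without control 1 and 43.2% of 991 without both control 1 and OPP 3.

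Signs turned for 13 genes. Quantile normalisation gave −0.0075 for Pgk1 and median scaling −0.0017 for Slc2a3. The replicate block gave 0.0098 for Slc2a1, −0.059 for Slc2a3, −0.027 for Pgk1, 0.078 for Arnt and −0.061 for Bnip3l. Without both control 1 and OPP 3 the values were −0.045 for Hk2, −0.096 for Pfkfb3, −0.0082 for Pgk1, −0.063 for Pdk1 and 0.0050 for Arnt. Leaving out each sample gave ranges of −0.18 to 0.067 for Slc2a1, −0.059 to 0.10 for Slc2a3, −0.037 to 0.13 for Hk2, −0.20 to 0.14 for Pfkfb3, −0.051 to 0.061 for Pgk1, −0.13 to 0.0085 for Aldoa, −0.18 to 0.025 for Pgam1, −0.12 to 0.060 for Ldha, −0.11 to 0.078 for Arnt, −0.061 to 0.087 for Bnip3l, −0.021 to 0.14 for Gapdh, −0.29 to 0.0043 for Tpi1 and −0.059 to 0.27 for Pdk1. The cause was not tested. Low signal over background limits Hk1, Egln1, Egln3, Adm and Ndrg1, and leaves Hif1a, Epas1, Slc16a1, Bnip3 and Car9 without a comparison.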
